A study of Mus musculus with 14 samples.

Results

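The 10 genes described here carry out or control antigen presentation by MHC class I molecules: H2-K1, H2-D1, B2m, Tap1, Tap2, Tapbp, Psmb8, Psmb9, Nlrc5 and Erap1. They were taken by name, not by their values, from an RNA-seq table of the mouse uterus with 31274 gene symbols. All 10 were in the table, and all 10 passed the filter for testing, which asked for at least 1 FPKM in at least 3 of the 14 libraries. FPKM is a fragment count divided by the length of the transcript and by the size of the library. Nlrc5 reached 1 FPKM in 7 libraries and each of the others did so in all 14.

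A class I molecule is a heavy chain, in mice H2-K or H2-D among others, bound to the light chain beta-2-microglobulin and a short peptide, and it is read at the cell surface by CD8 T cells and by receptors of natural killer (NK) cells. Its peptides are cut by the proteasome, carried into the endoplasmic reticulum by the TAP transporter, trimmed there by Erap1 and placed in the groove with the help of tapasin (Tapbp). Interferon gamma raises most of these genes, in part through the coactivator Nlrc5, and in the uterus class I molecules are ligands for NK cells, which are abundant around implantation.

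The uteri came from intact, untreated FVB/N females aged 2 months. There were 3 libraries labelled HIF2A cKO at estrus, 4 labelled HIF2A cKO at diestrus, 3 WT at estrus and 4 WT at diestrus. Estrus follows the preovulatory peak of estrogen, and diestrus is the progesterone phase of the cycle. HIF2A is the hypoxia-inducible transcription factor encoded by Epas1. In the sources used here neither the Cre driver, nor the deleted segment, nor the cells that carry the deletion were given.

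The columns summed to between 437879 and 497688 FPKM, and the number of reads behind them was unknown. Smooth muscle markers summed to between 3155 and 4853 FPKM and stromal markers to between 1399 and 2495, as uterine tissue holds. Epas1 checks the genotype, and its level was no lower under the HIF2A cKO label. It averaged 39.5 ± 4.44 FPKM in HIF2A cKO diestrus and 34.8 ± 5.82 in WT diestrus (SD, n = 4 each, exact two-sided permutation p = 0.229), and 41.2 ± 4.01 in HIF2A cKO estrus and 32.9 ± 1.56 in WT estrus (n = 3 each, exact p = 0.1, the smallest that 3 against 3 allow). Directions between genotypes therefore rest on the labels. The diestrus libraries numbered 3 stood apart in both genotypes. Their NK cell markers summed to 98.05 FPKM in HIF2A cKO diestrus 3 and 180.1 in WT diestrus 3, against 7.846 to 9.042 and 8.649 to 25.51 in the other diestrus libraries of each genotype, and results that rest on them are given with and without them. The labels do not say whether libraries came from separate animals, so the p-values reflect only how far these samples vary, and that variation may be technical.

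Of the 10 genes, 7 lie on chromosome 17 (mm10), in or beside the H2 region. H2-K1 is at chr17:33996017-34000347 on the minus strand and H2-D1 at chr17:35262730-35267499 on the plus strand. Psmb9 (chr17:34181987-34187764, minus), Tap1 (chr17:34187553-34197225, plus), Psmb8 (chr17:34197721-34201454, plus) and Tap2 (chr17:34203527-34216321, plus) follow each other, and Tapbp (chr17:33915899-33929292, plus) lies before H2-K1. B2m (chr2:122147686-122153083, plus), Nlrc5 (chr8:94434356-94527272, plus) and Erap1 (chr13:74639568-74693201, plus) are on other chromosomes. Tap1 and Psmb9 start head to head and overlap by 212 bases. FVB/N mice carry another H2 haplotype than the C57BL/6J reference, and the share of 50-base stretches also found in transcripts of other genes was 8.79% in H2-K1 and 14.3% in H2-D1, so part of their signal may belong to other heavy chains. It was 21% in Tapbp, 14% in Erap1, 12.6% in Tap2, 12.5% in Psmb9, 6.47% in Tap1 and 5.83% in Psmb8, mainly from overlapping gene models, and 0 in B2m and Nlrc5.

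The start regions of the heavy chains and B2m are shown because these 3 genes rose at estrus in both genotypes, and that of Tap1 because it also covers the start of Psmb9. RefSeq (GRCm38.p6) gave windows from 250 bases before to 50 after the start for 8 of the 10 genes. Those printed are H2-K1 (chr17:34000298-34000597, minus), H2-D1 (chr17:35262844-35263143, plus), B2m (chr2:122147437-122147736, plus) and Tap1 (chr17:34187306-34187605, plus), each written 5′ to 3′ on the strand of its gene.
H2-K1: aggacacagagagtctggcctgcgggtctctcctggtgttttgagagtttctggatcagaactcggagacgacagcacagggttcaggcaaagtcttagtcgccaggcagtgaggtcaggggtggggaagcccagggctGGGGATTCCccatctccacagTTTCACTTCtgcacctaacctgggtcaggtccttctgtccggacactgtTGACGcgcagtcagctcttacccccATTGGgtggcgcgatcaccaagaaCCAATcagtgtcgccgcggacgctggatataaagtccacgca
H2-D1: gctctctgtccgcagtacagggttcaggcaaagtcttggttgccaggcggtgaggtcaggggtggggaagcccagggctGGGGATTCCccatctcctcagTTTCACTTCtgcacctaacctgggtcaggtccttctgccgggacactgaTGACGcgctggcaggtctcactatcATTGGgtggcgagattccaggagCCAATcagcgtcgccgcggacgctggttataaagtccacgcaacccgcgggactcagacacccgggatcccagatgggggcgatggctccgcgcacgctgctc
B2m: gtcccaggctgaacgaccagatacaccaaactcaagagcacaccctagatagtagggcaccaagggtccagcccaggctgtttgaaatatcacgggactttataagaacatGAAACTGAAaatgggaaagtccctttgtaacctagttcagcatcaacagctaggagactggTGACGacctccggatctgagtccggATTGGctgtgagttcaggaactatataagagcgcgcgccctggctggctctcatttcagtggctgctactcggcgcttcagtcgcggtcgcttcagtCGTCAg
Tap1: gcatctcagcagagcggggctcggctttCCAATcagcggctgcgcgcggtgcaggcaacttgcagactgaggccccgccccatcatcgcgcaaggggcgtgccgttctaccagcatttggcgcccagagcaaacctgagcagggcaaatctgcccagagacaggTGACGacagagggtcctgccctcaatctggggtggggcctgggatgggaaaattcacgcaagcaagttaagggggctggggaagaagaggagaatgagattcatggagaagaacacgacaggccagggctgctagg
Capitals mark matches on either strand to 5 short motifs that were chosen with these windows in view: the interferon-stimulated forms GAANNGAAA and GAAANNGAA, the NF-kappa-B motif GGGGATTCC, the cyclic AMP element core TGACG and the CCAAT box, which reads ATTGG on the other strand. The interferon forms can overlap each other, and in the printed windows they did not.

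H2-K1 and H2-D1 both held GGGGATTCC, found in 0.25% of the 32851 windows of all genes, and GAANNGAAA, found in 7.52%. B2m and Erap1 held GAAANNGAA, found in 8.56%. TGACG was in 5 of the 8 genes with a window (20.8% of all windows) and CCAAT in 6 (37.4%). In H2-K1, H2-D1 and B2m alike, TGACG was followed after 20 bases by ATTGG, which is how the X2 and Y boxes of class I promoters are arranged. That pair stood in 31 of 32851 windows (0.0944%), and these 3 were the only ones of the 8 genes to hold it. The gap of 20 bases was itself read from the H2-K1 window, so its match was given in advance. The share is therefore a description and no independent test. In both heavy chains the NF-kappa-B motif began 21 bases before the interferon form, and that form began 49 bases before TGACG. The H2-K1 and H2-D1 windows were 73.3% identical over 240 bases aligned at that motif, and the Tap1 and Psmb9 windows shared 275 bases. A match describes the letters of the reference and not the binding of a factor.

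The class I heavy chains were higher at estrus in both genotypes. H2-K1 stood at 253.5, 235 and 282.2 FPKM in the HIF2A cKO estrus libraries, against 155.3, 145.9, 135.5 and 126.8 in HIF2A cKO diestrus. It stood at 256.3, 218.3 and 232.1 in WT estrus, against 179.1, 114.3, 142.8 and 158.7 in WT diestrus. Every estrus library was above every diestrus library, and the fold was 1.82 in HIF2A cKO (0.86 log2, SE 0.132, limma adjusted p = 0.000107) and 1.6 in WT (0.68 log2, SE 0.132, adjusted p = 0.000892). Log2 differences here and below are on the log2(FPKM + 1) scale. In whole tissue, fewer cells of a type and less RNA per cell cannot be told apart.

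H2-D1 was the more abundant of the pair in each library, at 2.29 to 2.79 times the FPKM of H2-K1. It stood at 649, 612.8 and 722.2 FPKM in HIF2A cKO estrus, against 372.5, 369.2, 371.8 and 353.5 in HIF2A cKO diestrus. In WT it stood at 656.3, 575.5 and 597.9 at estrus, against 410.4, 313.1, 368 and 390.9 at diestrus. The stages did not overlap in either genotype, with log2 differences of 0.85 in HIF2A cKO (SE 0.098, adjusted p = 1.2e-05) and 0.72 in WT (SE 0.098, adjusted p = 6.61e-05). The 2 heavy chains had the most similar profiles of all pairs among the 10 genes, with a root mean square difference of 0.0723 between their centred log2 values over the 14 libraries.

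**Figure D1:**
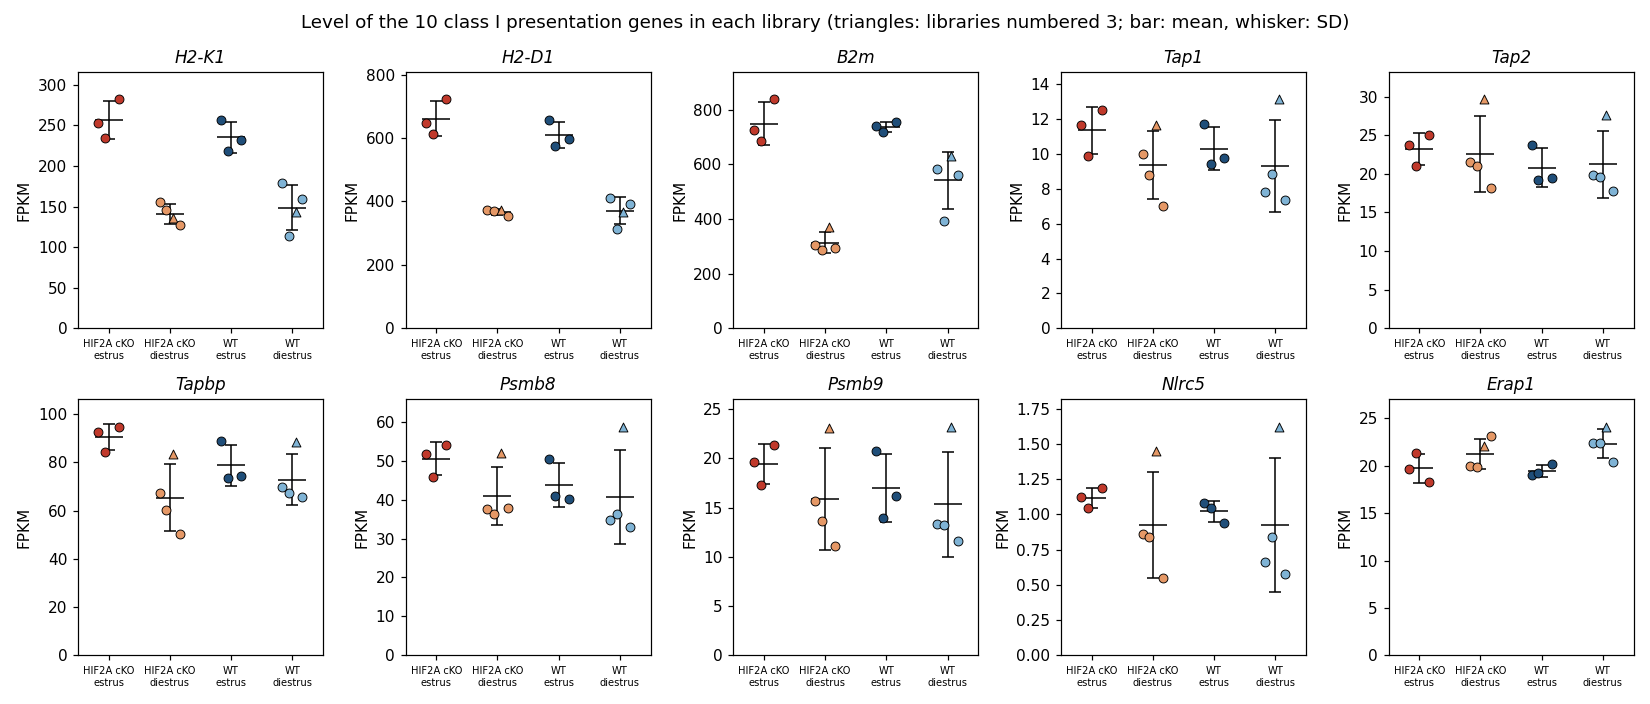
FPKM of each of the 10 genes in each of the 14 libraries (points; triangles are the diestrus libraries numbered 3), with the mean and SD of each group; the vertical axes start at 0 and differ between genes. H2-K1 and H2-D1 sit higher at estrus in both genotypes, B2m is lowest in HIF2A cKO diestrus, and in Tap1, Tap2, Tapbp, Psmb8, Psmb9 and Nlrc5 the triangles lie above the other diestrus points.

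B2m, the light chain shared by all classical class I molecules, combined a change with the cycle and a difference between the genotypes at diestrus. It stood at 725.8, 684 and 837.8 FPKM in HIF2A cKO estrus, against 304.8, 285, 369.8 and 293.6 in HIF2A cKO diestrus. In WT it stood at 738.8, 717 and 755.3 at estrus, against 584.5, 391.8, 631.4 and 560.8 at diestrus. The highest HIF2A cKO diestrus library was below the lowest WT diestrus library, and both diestrus groups lay below both estrus groups. The rise at estrus was 2.39-fold in HIF2A cKO (1.26 log2, SE 0.150, adjusted p = 1.5e-05) and 1.38-fold in WT (0.47 log2, SE 0.150, adjusted p = 0.0184). The WT rise missed the threshold without WT estrus replicate 4 (adjusted p = 0.0558) and in a fit of those 7 libraries alone (0.0511).

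At diestrus B2m was 0.585 times as high in the libraries labelled HIF2A cKO as in WT (-0.77 log2, SE 0.139, adjusted p = 0.00476). With same-numbered libraries as a block and these 2 groups fitted alone, the limma adjusted p was 0.0236. The difference ran from -0.92 to -0.69 log2 over 31 other settings, with adjusted p from 1.09e-05 to 0.0484, and the call was lost only where a change of at least 2-fold was also asked for. At estrus the genotypes overlapped, at 0.02 log2 (SE 0.161, adjusted p = 0.997). The test of whether the cycle change itself differed between genotypes gave 0.79 log2 (SE 0.212, unadjusted p = 0.00262), which did not pass the adjustment over all genes (adjusted p = 0.137). Without the diestrus libraries numbered 3 it was 0.79 with an adjusted p of 0.0334, where 3.98% of all genes were called higher and 4.38% lower. It also passed without WT diestrus replicate 2 (0.94, adjusted p = 0.0249) or without HIF2A cKO diestrus replicate 3 (0.88, adjusted p = 0.0288). For B2m these were the lowest WT (391.8 FPKM) and the highest HIF2A cKO (369.8 FPKM) diestrus libraries, so leaving out either widened the difference. Leaving out any other single library did not bring it past the threshold.

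The proportion of light to heavy chain RNA was also lower in HIF2A cKO at diestrus. B2m over the sum of H2-K1 and H2-D1 was 0.578, 0.553, 0.729 and 0.611 in HIF2A cKO diestrus, against 0.991, 0.916, 1.24 and 1.02 in WT diestrus. The 2 groups did not overlap, and the ratio was not tested. At estrus it was 0.804, 0.807 and 0.834 in HIF2A cKO and 0.81, 0.903 and 0.91 in WT, where the groups overlapped. H2-K1 differed at diestrus by -0.06 log2 (SE 0.122, adjusted p = 0.732) and H2-D1 by -0.01 (SE 0.091, adjusted p = 0.958).

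**Figure D2:**
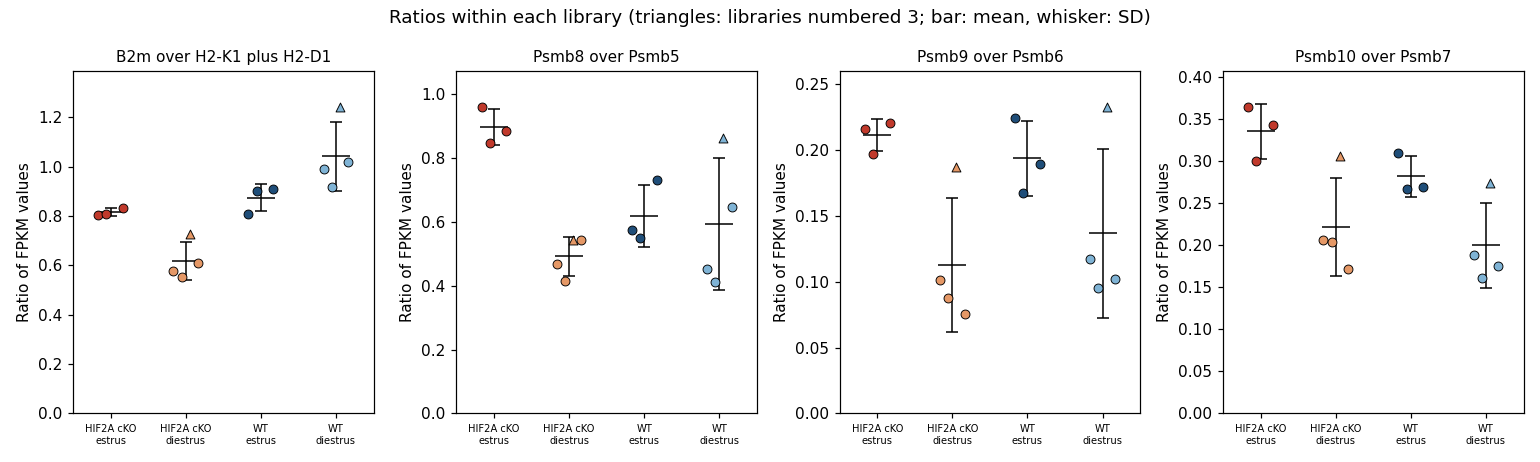
Ratios of FPKM values in each library (points; triangles are the diestrus libraries numbered 3), with the mean and SD of each group: B2m over the 2 heavy chains, and each immunoproteasome subunit over the constitutive subunit it replaces. B2m over heavy chains is 0.553 to 0.729 in HIF2A cKO diestrus, below all other libraries.

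The immunoproteasome subunits Psmb8 and Psmb9 replace Psmb5 and Psmb6 of the constitutive proteasome and change which peptides are cut. Psmb8 stood at 51.56, 45.71 and 53.97 FPKM in HIF2A cKO estrus, against 37.51, 36.27, 51.99 and 37.86 in HIF2A cKO diestrus. In WT it stood at 50.29, 40.92 and 40.01 at estrus, against 34.75, 36.2, 58.71 and 32.98 at diestrus. In each genotype 3 of the 4 diestrus libraries lay below all estrus libraries, and the library numbered 3 reached or passed them. Psmb8 was not called in either genotype (0.31 log2, adjusted p = 0.161 in HIF2A cKO; 0.14, adjusted p = 0.545 in WT). Leaving out WT diestrus replicate 3 alone brought the HIF2A cKO difference to an adjusted p of 0.0449.

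Psmb9 had the same layout. It stood at 19.67, 17.32 and 21.39 FPKM in HIF2A cKO estrus, against 15.7, 13.66, 23.08 and 11.12 in HIF2A cKO diestrus, and at 20.77, 14 and 16.17 in WT estrus, against 13.3, 13.24, 23.24 and 11.58 in WT diestrus. The library numbered 3 was the highest of its stage in both genotypes. Neither difference passed the threshold (0.32 log2, SE 0.243, adjusted p = 0.274 in HIF2A cKO; 0.17, SE 0.243, adjusted p = 0.567 in WT).

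The constitutive partners fell at estrus or did not pass. Psmb6 fell at estrus in both genotypes (-0.65 log2 in HIF2A cKO, adjusted p = 0.000197; -0.41 in WT, adjusted p = 0.0063), as did Psmb7 (-0.47, adjusted p = 0.00111; -0.34, adjusted p = 0.00929). Psmb5 fell in HIF2A cKO (-0.55, adjusted p = 0.0187) and stood at 0.03 log2 in WT (adjusted p = 0.91). Psmb9 over Psmb6 averaged 0.211 ± 0.0126 in HIF2A cKO estrus and 0.113 ± 0.0509 in HIF2A cKO diestrus, and 0.194 ± 0.0288 in WT estrus and 0.136 ± 0.0644 in WT diestrus (SD, n = 3 and 4). In WT its stages overlapped (0.167 to 0.224 at estrus, 0.095 to 0.232 at diestrus). Psmb8 over Psmb5 averaged 0.895 ± 0.0567 in HIF2A cKO estrus and 0.491 ± 0.0617 in HIF2A cKO diestrus, but 0.617 ± 0.0973 in WT estrus and 0.593 ± 0.207 in WT diestrus. Psmb10 over Psmb7 overlapped between stages in both genotypes, and no ratio was tested. The third immunoproteasome subunit, Psmb10, was not called in any comparison and averaged 31.2 ± 2.61 FPKM in HIF2A cKO estrus and 28.1 ± 3.99 in HIF2A cKO diestrus.

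Tap1 and Tap2 form the peptide transporter. Tap1 stood at 11.66, 9.891 and 12.51 FPKM in HIF2A cKO estrus, against 9.988, 8.776, 11.67 and 7.035 in HIF2A cKO diestrus. In WT it stood at 11.74, 9.401 and 9.786 at estrus, against 7.819, 8.839, 13.14 and 7.349 at diestrus. The stages overlapped in both genotypes, and the log2 differences were 0.27 in HIF2A cKO (SE 0.183, adjusted p = 0.222) and 0.16 in WT (SE 0.183, adjusted p = 0.464).

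Tap2 moved least with the cycle. It stood at 23.8, 21 and 25 FPKM in HIF2A cKO estrus, against 21.54, 21.01, 29.66 and 18.17 in HIF2A cKO diestrus, and at 23.7, 19.2 and 19.43 in WT estrus, against 19.87, 19.62, 27.64 and 17.81 in WT diestrus. Its groups overlapped in every comparison, with 0.06 log2 in HIF2A cKO (adjusted p = 0.771) and -0.02 in WT (adjusted p = 0.937).

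Tapbp, the tapasin that bridges TAP and the empty class I molecule, rose at estrus in HIF2A cKO. It stood at 92.32, 84.27 and 94.74 FPKM in HIF2A cKO estrus, against 67.09, 60.32, 83.46 and 50.43 in HIF2A cKO diestrus. The estrus libraries were all above the diestrus libraries, by 0.49 log2 (SE 0.149, adjusted p = 0.0124). In WT the stages overlapped, at 88.58, 73.31 and 74.47 FPKM at estrus, against 69.79, 67.33, 88.49 and 65.47 at diestrus (0.12 log2, SE 0.149, adjusted p = 0.515). The change itself did not differ between genotypes past the threshold (0.37, SE 0.210, adjusted p = 0.378).

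Erap1, which shortens peptides to the length that fits the groove, was the only one of the 10 that was called lower at estrus. In WT it stood at 19.02, 19.19 and 20.14 FPKM at estrus, against 22.34, 22.41, 24.12 and 20.38 at diestrus, below without overlap (-0.19 log2, SE 0.075, adjusted p = 0.048). This call was close to the threshold and was lost under 18 of 31 other settings, among them each rescaling between libraries. It was also lost without WT estrus replicate 1, 2 or 4, WT diestrus replicate 1, 2 or 3, HIF2A cKO estrus replicate 1 or HIF2A cKO diestrus replicate 1 (adjusted p from 0.0519 to 0.125). In HIF2A cKO the stages overlapped, at 19.67, 21.3 and 18.23 FPKM at estrus and 19.97, 19.82, 22.11 and 23.08 at diestrus (-0.10 log2, adjusted p = 0.258). Overlapping transcripts of Cast, the calpain inhibitor gene on the other strand, share 14% of its stretches.

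Nlrc5, the coactivator of class I genes, was the least abundant of the 10. It stood at 1.122, 1.047 and 1.188 FPKM in HIF2A cKO estrus, against 0.858, 0.84, 1.452 and 0.549 in HIF2A cKO diestrus. In WT it stood at 1.08, 1.045 and 0.941 at estrus, against 0.661, 0.841, 1.623 and 0.581 at diestrus. Estrus libraries were above 3 of the 4 diestrus libraries in each genotype, and the library numbered 3 was above them all. The differences of 0.16 (SE 0.174, adjusted p = 0.45) and 0.10 log2 (SE 0.174, adjusted p = 0.645) understate a change at so low a level. By the same profile measure, Nlrc5 lay closest to Tap1 (0.0917), Tap2 (0.0996) and Psmb8 (0.114), and farthest from B2m (0.507), H2-K1 (0.416) and H2-D1 (0.395). The measure is not scaled to the size of a gene's changes. A gene at so low a level therefore lies near genes that move little, whichever genes it follows.

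In all, estrus minus diestrus called 4 of the 10 genes higher and 0 lower in HIF2A cKO, where 25.5% of the 14278 genes tested were called higher and 36.5% lower. It called 3 higher and 1 lower in WT, where 23% of genes were called higher and 34.1% lower. The median of the 10 was 0.31 log2 in HIF2A cKO and 0.15 in WT, beside medians of -0.08 and -0.09 over all genes tested. HIF2A cKO minus WT at diestrus called 1 gene, B2m, lower and 0 higher, against 10% of genes called lower and 13.8% higher. At estrus it called 0 of the 10, 0 of them at an unadjusted p under 0.05 in limma, against 0.0700% called higher and 0.0350% lower. The interaction called 0 of the 10, with 1 (B2m) at an unadjusted p under 0.05, against 0.0140% called higher and 0.0210% lower. At estrus all 10 genes had a positive log2 difference, between 0.02 (Erap1) and 0.21 (Psmb8), within their standard errors or near them.

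**Figure D3:**
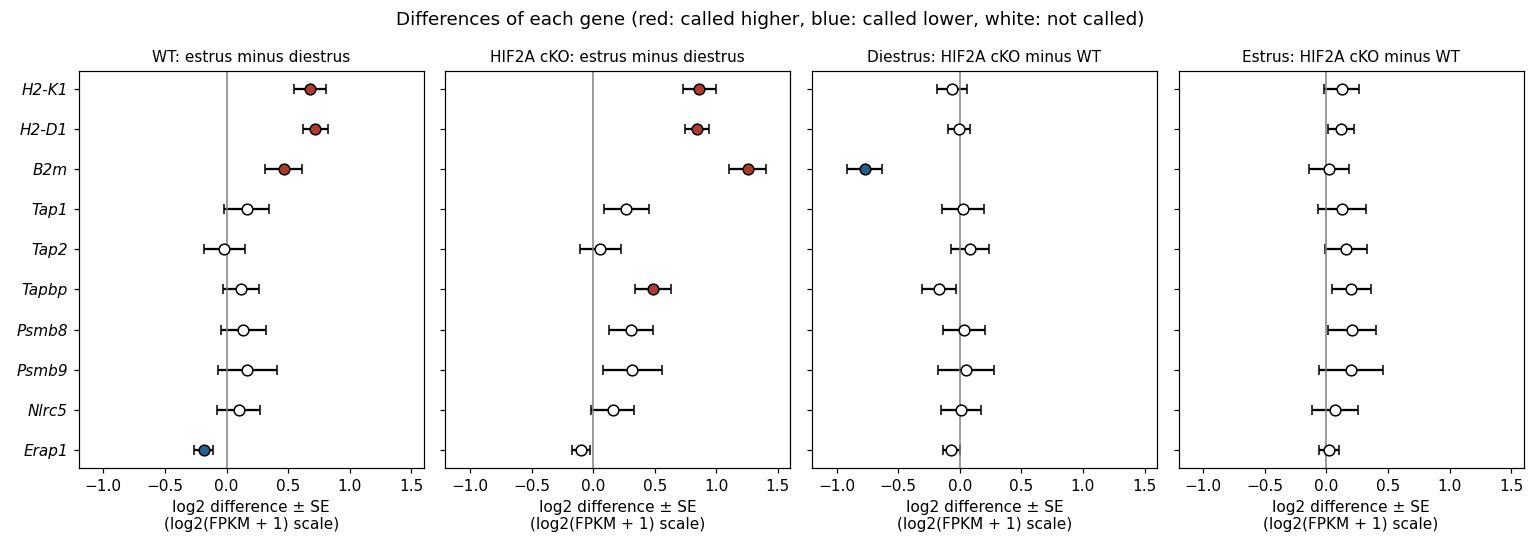
Log2 difference (points) and standard error (bars) of the 10 genes in the 4 comparisons, on the log2(FPKM + 1) scale. H2-K1, H2-D1 and B2m are called higher at estrus in both genotypes, and B2m is the only gene called between genotypes.

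How many processing genes were called higher at estrus depended on the diestrus libraries numbered 3. Without them, 8 of the 10 genes rose in HIF2A cKO and 7 in WT, and 0 fell, where 28.4% of all genes tested were called higher and 38.2% lower in HIF2A cKO, and 25.1% higher and 36.0% lower in WT. Between genotypes the same 12 libraries called B2m lower at diestrus, beside 17.9% of genes called higher and 14.3% lower, and 0 of the 10 at estrus, beside 0.217% higher and 0.231% lower. Psmb8 then rose by 0.43 log2 in HIF2A cKO (adjusted p = 0.00142) and 0.32 in WT (adjusted p = 0.00908), Psmb9 by 0.51 (adjusted p = 0.0095) and 0.38 (adjusted p = 0.0421), Tap1 by 0.37 (adjusted p = 0.0233) and 0.33 (adjusted p = 0.0434), and Nlrc5 by 0.28 (adjusted p = 0.0269) and 0.26 (adjusted p = 0.0428). Tapbp stayed past the threshold in HIF2A cKO, Erap1 in WT was no longer called (-0.15, adjusted p = 0.109), and Tap2 was called in neither genotype. In both genotypes the library numbered 3 was the highest diestrus library for 7 of the 10 genes, as it was for 2563 of the 14278 genes tested (18%). For those 7, leaving it out had to raise estrus minus diestrus. The calls gained without it are therefore tied to the values of the same genes and are no independent support. H2-K1 and H2-D1 were not among the 7, and there the numbered 3 libraries stood at 0.95 and 1.02 times the mean of the other HIF2A cKO diestrus libraries and 0.947 and 0.991 times that of WT.

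**Figure D4:**
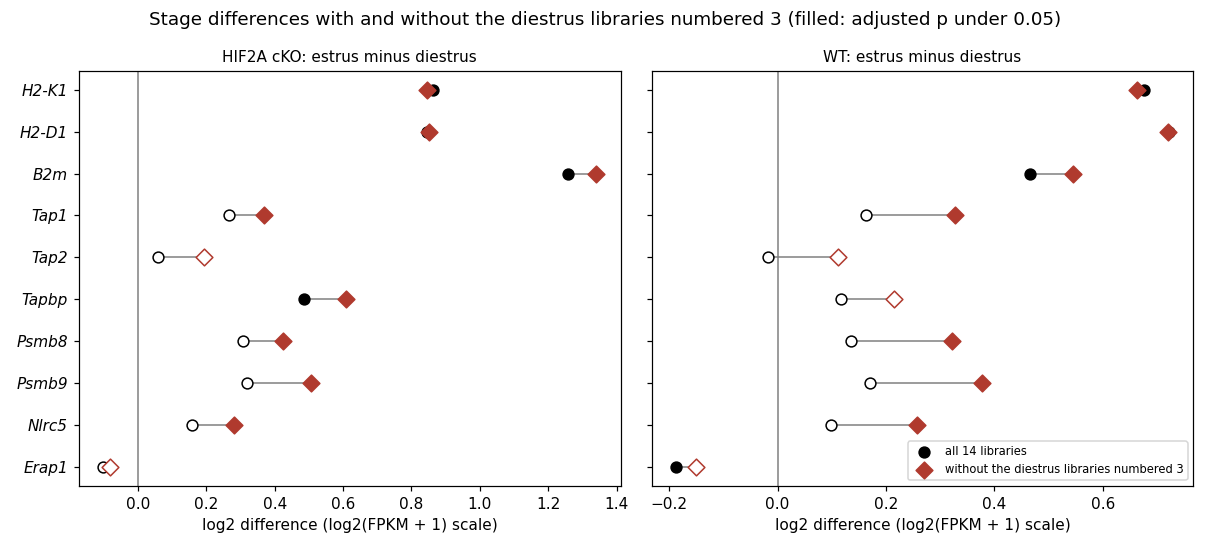
Log2 difference between estrus and diestrus for each gene with all 14 libraries (circles) and without the diestrus libraries numbered 3 (diamonds), filled where the adjusted p is under 0.05. Psmb8, Psmb9, Tap1 and Nlrc5 are filled in both genotypes only as diamonds, while H2-K1 and H2-D1 barely move.

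Markers of other cells differed along the same lines. In the diestrus libraries numbered 3, leukocyte markers summed to 127 FPKM in HIF2A cKO and 173.4 in WT, against 69.46 to 80.83 and 72.15 to 94.5 in the other diestrus libraries, and endothelial markers to 179.3 and 222.5, against 119.2 to 134 and 114.9 to 136.9. Stromal markers summed to 2290 and 2495, against 1399 to 1470 and 1548 to 1793, and T cell markers to 4.485 and 8.527, against 2.659 to 3.447 and 3.807 to 4.815. Epithelial markers summed to 401.3 and 333.5, against 691 to 870.5 and 431.9 to 556. Abundant genes weigh most in these sums, and not every gene of a list followed its sum. In WT diestrus 3, Vim stood at 2 and Pdgfrb at 0.827 times the mean of the other WT diestrus libraries. Cd3g stood at 2.65 and Cd4 at 0.726 times, and Krt19 at 0.427 and Krt18 at 1.2 times. The NK granzyme Gzma stood at 27.28 and 56.02 FPKM, against at most 2.516 in the other diestrus libraries, and Ifng, the gene of interferon gamma, at 0.601 and 0.499, against 0.015 to 0.12. Ifng did not pass the filter.

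Between the stages, macrophage and dendritic cell markers summed to 212.9 to 258.1 FPKM in HIF2A cKO estrus, against 65.2 to 94.19 in HIF2A cKO diestrus, and to 185.3 to 223.7 in WT estrus, against 94.65 to 113.5 in WT diestrus. Of the 7 tested, 5 rose in HIF2A cKO and 6 in WT, and 0 fell. For this and the next lists, the shares of all genes tested were 25.5% called higher and 36.5% lower in HIF2A cKO. In WT they were 23% and 34.1%. Epithelial markers summed to 1126 to 1242 in HIF2A cKO estrus, against 401.3 to 870.5 in HIF2A cKO diestrus, and to 880 to 1063 in WT estrus, against 333.5 to 556 in WT diestrus. Of the 7 epithelial markers, 5 rose and 1 fell in HIF2A cKO, and 6 rose and 1 fell in WT. Of 7 stromal markers, 2 rose and 4 fell in HIF2A cKO, and 1 rose and 5 fell in WT. Of 6 endothelial markers, 1 rose and 2 fell in HIF2A cKO, and 0 rose and 3 fell in WT, and of 6 smooth muscle markers, 1 rose and 2 fell in HIF2A cKO, and 1 rose and 3 fell in WT. T cell markers summed to at most 8.527 and B cell markers to at most 5.105 FPKM, and Cd8a, the defining gene of the T cells that read class I, lay between 0.016 and 0.051 FPKM in all libraries.

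At diestrus, epithelial markers summed to between 401.3 and 870.5 FPKM in HIF2A cKO and between 333.5 and 556 in WT. Of these 7 markers, 1 was called higher and 1 lower in HIF2A cKO. For this and the next lists, the shares of all genes tested were 13.8% called higher and 10% lower. Of 5 leukocyte markers 1 was called lower in HIF2A cKO, and 0 of the NK, macrophage and T cell markers were called. Of 7 stromal markers 1 was higher and 3 lower, and of 6 endothelial markers 1 was higher. The part of these cells in the differences of the 10 genes was not tested.

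**Figure D5:**
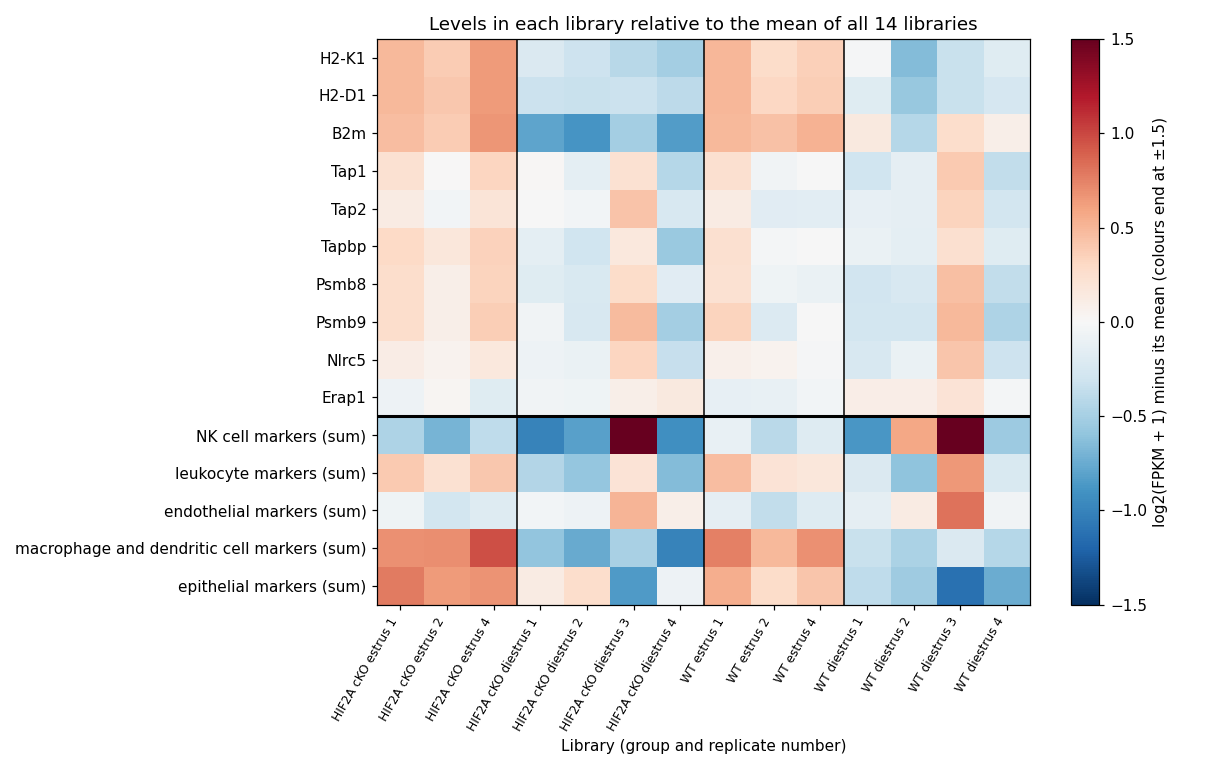
Log2(FPKM + 1) of the 10 genes and of 5 summed marker lists in each library, minus the mean of the 14 libraries; the NK marker sums of the diestrus libraries numbered 3 go past the end of the colour scale. Rows H2-K1 and H2-D1 separate the stages, and Tap1 to Nlrc5 are high in the diestrus libraries numbered 3.

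Other class I heavy chains moved with H2-K1 and H2-D1. Of 15 tested heavy chain genes of the H2 region, 12 rose in HIF2A cKO (median 0.77 log2) and 10 in WT (median 0.57), and 0 fell. H2-T23, which codes the nonclassical chain Qa-1, stood at 32.44, 30.16 and 31.76 FPKM in HIF2A cKO estrus, against 8.917, 9.326, 15.94 and 8.447 in HIF2A cKO diestrus, and at 33.84, 29.7 and 25.97 in WT estrus, against 12.18, 9.286, 17.34 and 12.01 in WT diestrus. It did not overlap between stages in either genotype (1.52 log2 in HIF2A cKO, adjusted p = 4.04e-05; 1.19 in WT, adjusted p = 0.000369). H2-Bl rose by 0.86 log2 in HIF2A cKO (adjusted p = 0.000937) and 0.97 in WT (adjusted p = 0.000521), and H2-Q7 by 0.79 (adjusted p = 0.00565) and 1.01 (adjusted p = 0.00134). These near-identical genes may share fragments, so their values are uncertain.

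Class I-like genes outside the H2 region, whose products also pair with B2m in most cases, rose for 4 of 5 in HIF2A cKO and 2 of 5 in WT. Cd1d1, which presents lipids to NKT cells, averaged 20.6 FPKM in HIF2A cKO estrus and 3.68 in HIF2A cKO diestrus (2.27 log2, adjusted p = 2.87e-05), and 21.9 in WT estrus and 8.62 in WT diestrus (1.33, adjusted p = 0.00212). At diestrus it was lower in HIF2A cKO than in WT (-1.04, adjusted p = 0.0185), as B2m was. Of the 5 genes 2 were called lower there, and 4 without the diestrus libraries numbered 3, beside 10% and 14.3% of all genes. Fcgrt, the neonatal Fc receptor chain that also binds B2m, rose at estrus by 1.03 log2 in HIF2A cKO (adjusted p = 0.00017) and 0.61 in WT (adjusted p = 0.00743).

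Of 7 partners in peptide loading, 6 fell at estrus in HIF2A cKO and 4 in WT, and 0 rose, beside 36.5% and 34.1% of all genes called lower; under median-of-ratios scaling 5 and 1 fell. Calr, the chaperone of the loading complex, averaged 398 FPKM in HIF2A cKO estrus and 732 in HIF2A cKO diestrus (-0.84 log2, adjusted p = 0.00231), and 334 in WT estrus and 475 in WT diestrus (-0.49, adjusted p = 0.0482). Pdia3, its disulfide isomerase partner, fell by 0.76 log2 in HIF2A cKO (adjusted p = 0.000709) and by 0.56 in WT (adjusted p = 0.00651), Hspa5 fell by 1.07 in HIF2A cKO (adjusted p = 0.00859) and stood at -0.66 in WT (adjusted p = 0.0825), and the tapasin relative Tapbpl was not called (0.04 and -0.03). At diestrus Calr was higher in HIF2A cKO than in WT (0.61, adjusted p = 0.0303), the 1 of 7 called, beside 13.8% of all genes called higher. Without the diestrus libraries numbered 3, 6 of 7 were called, beside 17.9% of all genes called higher and 14.3% lower.

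Of 12 other proteasome and PA28 subunits, 8 fell in HIF2A cKO and 6 in WT, and 0 rose, beside the same shares of all genes. The PA28 activator subunit Psme2 fell in WT (-0.32 log2, adjusted p = 0.0417) and stood at -0.29 in HIF2A cKO (adjusted p = 0.0554), while Psme1 was not called (0.03 and -0.12). Psme3, the nuclear member of the family, fell by 0.77 in HIF2A cKO (adjusted p = 1.32e-05) and 0.53 in WT (adjusted p = 0.000326). At diestrus 4 of the 12 were higher in HIF2A cKO, among them Psma7 (0.33, adjusted p = 0.0333) and Psmb6 (0.32, adjusted p = 0.0357), but 1 under upper quartile scaling. With the values as deposited, 13.8% of all genes were called higher at diestrus. Psma3, a ring subunit, fell at estrus by 0.60 in HIF2A cKO (adjusted p = 0.000737) and by 0.56 in WT (adjusted p = 0.00142). Of 7 other peptide-trimming peptidases 4 fell and 1 rose in each genotype, led by Thop1, a cytosolic endopeptidase (-1.27 in HIF2A cKO, adjusted p = 2.42e-07; -0.93 in WT, adjusted p = 5.03e-06). Bleomycin hydrolase, Blmh, fell by 0.76 in HIF2A cKO (adjusted p = 1.38e-05) and by 0.55 in WT (adjusted p = 0.000279). Thop1 was higher in HIF2A cKO than in WT at diestrus (0.33, adjusted p = 0.0155).

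Among 15 factors that act at class I promoters, 5 rose and 3 fell in HIF2A cKO, and 7 rose and 2 fell in WT. Of all genes tested, 25.5% were called higher and 36.5% lower in HIF2A cKO, and 23% and 34.1% in WT. Irf1, an interferon regulatory factor, rose by 0.58 log2 in HIF2A cKO (adjusted p = 0.00152) and 0.37 in WT (adjusted p = 0.0235). Ciita, the class II coactivator related to Nlrc5, averaged 1.70 FPKM in HIF2A cKO estrus and 1.04 in HIF2A cKO diestrus, and 2.08 in WT estrus and 1.08 in WT diestrus, and rose in both (0.41, adjusted p = 0.00278; 0.57, adjusted p = 0.000342). Rfx5, a subunit of the complex on the X box, was not called (-0.08 and -0.13). Irf2 rose by 0.43 in HIF2A cKO (adjusted p = 7.01e-05) and 0.44 in WT (adjusted p = 9.07e-05), and Nfyc, a subunit of the factor that binds CCAAT, fell by 0.60 in HIF2A cKO (adjusted p = 9.85e-05) and by 0.39 in WT (adjusted p = 0.00271). At diestrus 2 of the 15 were called higher in HIF2A cKO and 0 lower, beside 13.8% and 10% of all genes. Nfya was among them (0.32, adjusted p = 0.0324). Under upper quartile scaling 0 of the 15 were called.

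Interferon-induced genes without a class I role rose in 17 of 21 cases in HIF2A cKO (median 1.48 log2) and 12 of 21 in WT (median 0.71), and 0 fell. Irf7 rose by 2.80 (adjusted p = 4.79e-07) and 1.94 log2 (adjusted p = 1.48e-05), Ifit3 by 2.53 in HIF2A cKO (adjusted p = 2.06e-06) and 1.41 in WT (adjusted p = 0.000287), and Oas2 by 2.17 (adjusted p = 1.27e-05) and 1.49 (adjusted p = 0.000339). At diestrus 4 of the 21 were lower in HIF2A cKO than in WT, as B2m was (1 under quantile normalization). Bst2 was higher (1.03, adjusted p = 0.00476). Of all genes tested, 10% were called lower and 13.8% higher there. Of 13 interferon ligands, receptors and transducers, 8 rose and 1 fell in HIF2A cKO, and 6 rose and 2 fell in WT. Ifne, the interferon of the reproductive tract, averaged 10.51 ± 0.285 FPKM in HIF2A cKO estrus and 1.498 ± 0.987 in HIF2A cKO diestrus (2.29 log2, adjusted p = 6.29e-06), and 6.38 ± 0.603 in WT estrus and 0.581 ± 0.265 in WT diestrus (2.23, adjusted p = 1.35e-05; SD, n = 3 and 4). Ifngr2, a chain of the interferon gamma receptor, rose by 1.22 in HIF2A cKO (adjusted p = 2.13e-07) and 0.92 in WT (adjusted p = 3.37e-06). Socs1, the inhibitor of interferon receptor signalling, fell by 2.04 log2 in HIF2A cKO (adjusted p = 2.15e-06) and by 0.88 in WT (adjusted p = 0.00174), and was higher in HIF2A cKO than in WT at diestrus (1.23, adjusted p = 0.00255).

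Of 9 MHC class II genes 5 rose at estrus in each genotype and 0 fell, and in WT 8 rose under median-of-ratios scaling. H2-Ab1 rose by 0.73 log2 in HIF2A cKO (adjusted p = 0.000487) and 0.68 in WT (adjusted p = 0.000962), Cd74, the invariant chain, by 0.62 (adjusted p = 0.00259) and 0.56 (adjusted p = 0.00558), and H2-DMa by 0.52 (adjusted p = 0.00483) and 0.56 (adjusted p = 0.00351). At diestrus H2-Aa was lower in HIF2A cKO than in WT (-0.42, adjusted p = 0.0334), beside 10% of all genes called lower. Of 5 tested genes listed as receptors that read class I, 2 rose in HIF2A cKO (Pirb and Lilrb4) and 0 in WT. Whether mouse Lilrb4 reads class I was not checked. Without the diestrus libraries numbered 3 the counts were 4 and 3, beside 28.4% and 25.1% of all genes called higher. Pirb, an inhibitory receptor of myeloid and B cells, rose in HIF2A cKO (0.60, adjusted p = 0.0059) and stood at 0.26 in WT (adjusted p = 0.179). At estrus HIF2A cKO minus WT called 0 genes of any of these lists, and so did the interaction. Without the diestrus libraries numbered 3 the interaction called 4 of 21 interferon-induced genes and 2 of 15 other heavy chains higher. In that setting it called 3.98% of all genes higher and 4.38% lower, against 0.0140% and 0.0210% with all 14 libraries.

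The genes outside the 10 whose centred profile was closest to the mean profile of the 10 over the 14 libraries, among 9701 candidates of at least 5 FPKM, were Hmha1 (root mean square difference 0.0563 log2), Oxa1l (0.0632), Tgfb1 (0.0759), Gaa (0.0860), Adc (0.0863), Ubl7 (0.0879), Gramd1a (0.0892) and Ergic3 (0.0912).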

How the data were processed

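Total RNA was column-purified with DNase treatment, and libraries came from the Illumina TruSeq RNA kit, per the labels' protocols. The authors deposited 1 table of FPKM values. TopHat2 2.0.4, Cufflinks 2.0.2 and mm10 are named in the submitters' processing notes, and the annotation and options were not given in the sources used here. FPKM divides by the library total, so very abundant genes lower the others. Low values gave clear relative steps in 37 of 91 library pairs, but whole reads were not recovered, no counting error can be given and depth is unknown. No 2 columns were identical.

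Groups came from the labels. The tests used limma 3.58.1 (R 4.3.3) on log2(FPKM + 1), in 1 fit of 14 libraries with a mean per group, eBayes with trend and Benjamini-Hochberg adjustment at 0.05 over 14278 genes. Left out were 7 genes past the filter that were listed at 0 throughout one group but averaged 50 FPKM or more elsewhere. On data simulated for estrus minus diestrus in WT over 14278 genes, 42% of changes of 0.5 log2 and 83% of 1 log2 were recovered. How far these rates hold in the measured WT comparison, where 23% of genes were called higher and 34.1% lower, was not tested. Same-numbered diestrus libraries deviated together between genotypes (r = 0.321, 0.115, 0.622 and 0.217, beside highest values with another number of 0.125, 0.262, -0.105 and 0.171). Each was over 0.1, although number 2 correlated more with another number, so the pairing was fitted as a block among the alternatives. The differences given above, unless said otherwise, come from the fit without the block. With the pairing as a block B2m kept its call at diestrus. Coordinates are 1-based from GENCODE M21.

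The 10 genes and all lists were chosen with earlier results of these data known. Named besides the 10 were fixed genes of the pathway and, per list, the largest called changes at 5 FPKM or more; genes taken from marker lists are given as sums, and further genes are examples chosen after their values were seen. One gene that this rule names is not reported here. Alternatives were other pseudocounts, filters, scalings, eBayes options, library weights, the replicate block, thresholds and left-out libraries. Alternatives for the lists were added after the data were seen.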

Additional observations from a re-analysis of the deposited data

Results flagged for a closer look

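Among the 20 sets of diestrus libraries tested (10 genes in 2 genotypes), 3 held a library whose gap to the nearest other was above Dixon's 95% critical value for 4 samples, and chance gives about 1 in 20. Psmb8 stood at 51.99 FPKM in HIF2A cKO diestrus 3, against 36.27 to 37.86 in the other 3 libraries. Psmb8 stood at 58.71 FPKM in WT diestrus 3, against 32.98 to 36.2 in the others. Psmb9 stood at 23.24 FPKM in WT diestrus 3, against 11.58 to 13.3. All 3 are libraries numbered 3, in which the sums of NK cell, T cell, leukocyte, endothelial and stromal markers were also high and that of epithelial markers low.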

How the results depend on the processing

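Each result was recomputed under 31 alternatives (29 for the interaction). Of 1525 values of single genes, 1414 kept their direction and side of the threshold, 29 lost a call, 31 gained one, 51 changed sign without a call and 0 called values reversed. The number of the 10 genes called at estrus minus diestrus was 8 in HIF2A cKO and 7 in WT without the diestrus libraries numbered 3, and again 8 and 7 with the replicate block over all libraries, where the pairing of numbers between stages had no support (r from -0.135 to 0.018); there the interaction called 1 gene, B2m, as it did without the libraries numbered 3. With the block and the 2 groups compared alone, 6 were called in HIF2A cKO and 4 in WT; Tap1 (adjusted p = 0.0576 and 0.0609), Nlrc5 (0.0797 and 0.122) and Psmb9 in WT (0.0532) were not. Library weights called 7 in HIF2A cKO, where 4508 of all genes were called higher and 6058 lower. In the interaction they called 2 (B2m and Tapbp), beside 2342 of all genes called higher and 2883 lower. An adjusted p of 0.01 left 2 in WT. A minimum of 2-fold left 1 in HIF2A cKO (B2m), 0 in WT and 0 between genotypes at diestrus. Leaving out each library in turn gave 4 to 5 genes in HIF2A cKO, 2 to 4 in WT, 1 to 1 between genotypes at diestrus, 0 to 0 at estrus and 0 to 1 in the interaction. Over all genes, upper quartile scaling called 1582 higher and 1731 lower in HIF2A cKO at diestrus, where the values as deposited gave 1976 and 1434. The block changed no call between genotypes. Where a call changed, the cause was not tested. Unknown depth, groups of 3 and 4, the unmatched H2 haplotype and whole tissue limit these results.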
